A study of Homo sapiens with 3 samples.

Results

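The 10 genes described here are 5 that encode the DNA-binding subunits of the transcription factor NF-κB (NFKB1, NFKB2, REL, RELA and RELB) and 5 that NF-κB is known to switch on. Of the latter, NFKBIA, NFKBIE and TNFAIP3 encode inhibitors that feed back on the factor, BIRC3 encodes a ubiquitin ligase of the same pathway and ICAM1 encodes an adhesion molecule. They were chosen by name, with earlier results of these data known, from the 22435 genes to which the probes of the arrays could be matched. The arrays measured them with 11 probes on 29 spots. RELA had 2 probes and each of the other 9 genes had 1, and the probes of ICAM1 and NFKBIA were printed 10 times on each array while the other 9 probes were printed once.

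RNA came from A549, an established human lung adenocarcinoma cell line, kept for 48 h with 0.1% DMSO as the control, with 60 μg/mL cordycepin or with 100 μg/mL cordyceps. Cordycepin is an analog of adenosine that lacks a hydroxyl group on the ribose. Cordyceps is a genus of fungi in which cordycepin was found, and the preparation behind that label was not given in the sources used here. Per the labels, all 3 cultures grew in DMEM with fetal bovine serum that also contained zinc sulfate (16.7 μM), troglitazone (10 μM) and nicotinamide (10 mM), so every difference below was measured in the presence of these agents. The question the arrays addressed was which genes respond to the treatments. There was 1 Agilent array per condition (n = 1), so each ratio below compares 2 arrays, carries no replicate error and has no test or p-value. Both ratios use the same control array, which therefore enters both values of every gene.

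In resting cells NF-κB dimers are held in the cytoplasm by IκB proteins. Signals from cytokine receptors or from stress lead an IκB kinase to mark these inhibitors for destruction, and the dimers enter the nucleus and bind κB sites in their target genes. The targets include the genes of the inhibitors themselves and of several subunits, and in airway epithelial cells they include cytokines, chemokines and adhesion molecules.

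The signals given for each gene are the processed spot intensities of Agilent's software in arbitrary units, which are not scaled between arrays. The 75th percentile of the probe signals was 260.1 in control cells, 224.3 with cordycepin and 260.2 with cordyceps, and log2 ratios were taken after this percentile had been subtracted on the log2 scale. A gene was called changed when this ratio reached 2-fold. All 11 probes were well above background on all 3 arrays. Over 3356 genes with 2 probes measured, the log2 ratio of a single probe had a technical SD of 0.25 for cordycepin over control and of 0.2 for cordyceps over control, so that 2 such spreads are 0.5 and 0.4. The 2 probes of a gene differed by less than 2 SD of such a difference for 87% of these genes with cordycepin and 86.4% with cordyceps. The rest differed by more, so a distance in spreads is not a probability. The median log2 ratio of all genes measured on both arrays was -0.051 with cordycepin and -0.11 with cordyceps. In RNA from bulk cultures, a change in the number of cells that express a gene and a change of RNA per cell cannot be told apart.

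The cultures had the markers of an epithelial line. All 6 epithelial markers examined were well above background on all 3 arrays, but their levels were not steady. EPCAM (signals 1066, 323 and 742) fell 2.85-fold with cordycepin after scaling, and KRT19 (1451, 1523 and 612) fell 2.37-fold with cordyceps. The other 4, KRT7, KRT8, KRT18 and CDH1, stayed under 2-fold, with log2 ratios from -0.47 to 0.62 with cordycepin and from -0.71 to 0.04 with cordyceps. Of the leukocyte markers reported, PTPRC (99.5, 71.8 and 72.9) and CD14 (3387, 1559 and 2183) were well above background on every array, and CD3E on none. Of 4 endothelial markers, VWF (29.1, 37.4 and 25.7) and CDH5 (61.3, 57.5 and 35.3) were well above background on the control and cordycepin arrays and none was on the cordyceps array. The lowest signal of a detected probe also differed, at 18.6, 21.8 and 34.5, so detection asked for more signal on the cordyceps array. Of 4 fibroblast markers COL1A1 was well above background on each array. The log2 ratios of PTPRC were -0.26 with cordycepin and -0.45 with cordyceps, and those of CD14 were -0.91 and -0.63, all under 2-fold. The part of these markers in the values of the NF-κB genes was not tested.

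The cordyceps array stood apart in 1 corner. In the lower right corner of the array, 1284 of 11419 spots (11.2%) had a local background marked as outlying, against 0 on each of the other arrays, and 7.73% of the spots there were at least 2-fold higher than in control, against 1.41% elsewhere. Of the 29 spots of the NF-κB genes, 7 lay in this corner, 6 of NFKBIA and 1 of ICAM1, and 0 of the 9 probes printed once did.

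Promoter sequences of 5 of the genes are shown, because they include every gene that was called with either treatment (ICAM1, TNFAIP3, BIRC3 and NFKB2) and the inhibitor gene measured by the most spots (NFKBIA). Each is the 250 bases before a transcription start of RefSeq on GRCh38.p14, printed 5′ to 3′ on the strand of the gene. Capitals mark matches, on either strand, to the NF-κB consensus or to the sequence GGAAATTCC, both of which were searched as letters only.
ICAM1, chr19:10270870-10271119, + strand: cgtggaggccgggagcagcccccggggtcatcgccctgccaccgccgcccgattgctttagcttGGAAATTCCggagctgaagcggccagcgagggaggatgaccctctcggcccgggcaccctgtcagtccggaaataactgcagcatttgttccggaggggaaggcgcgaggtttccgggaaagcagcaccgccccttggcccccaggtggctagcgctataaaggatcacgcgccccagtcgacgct
TNFAIP3, chr6:137867009-137867258, + strand: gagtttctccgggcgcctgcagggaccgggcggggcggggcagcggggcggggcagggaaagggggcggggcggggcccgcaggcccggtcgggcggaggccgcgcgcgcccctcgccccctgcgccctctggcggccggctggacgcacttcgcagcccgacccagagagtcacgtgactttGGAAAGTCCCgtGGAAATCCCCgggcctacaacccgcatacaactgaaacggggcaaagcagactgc
BIRC3, chr11:102317234-102317483, + strand: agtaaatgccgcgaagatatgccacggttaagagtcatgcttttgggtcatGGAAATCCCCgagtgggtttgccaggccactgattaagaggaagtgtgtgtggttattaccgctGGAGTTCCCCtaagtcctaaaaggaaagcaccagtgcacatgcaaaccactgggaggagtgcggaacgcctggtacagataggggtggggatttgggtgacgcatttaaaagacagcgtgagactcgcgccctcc
NFKBIA, chr14:35404750-35404999, − strand: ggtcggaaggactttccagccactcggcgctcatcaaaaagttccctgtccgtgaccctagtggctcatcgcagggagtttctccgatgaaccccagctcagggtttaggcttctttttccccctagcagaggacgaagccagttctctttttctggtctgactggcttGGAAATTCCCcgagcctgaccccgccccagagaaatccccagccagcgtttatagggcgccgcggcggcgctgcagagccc
NFKB2, chr10:102395455-102395704, + strand: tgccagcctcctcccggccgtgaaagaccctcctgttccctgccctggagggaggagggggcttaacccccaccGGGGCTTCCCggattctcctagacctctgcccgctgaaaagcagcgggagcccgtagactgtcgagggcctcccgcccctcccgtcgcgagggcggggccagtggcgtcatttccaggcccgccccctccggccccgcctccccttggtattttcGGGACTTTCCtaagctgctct
The ICAM1 window holds GGAAATTCC from 186 to 178 bases before the start. The TNFAIP3 window holds a pair of consensus matches, GGAAAGTCCC from 67 to 58 and GGAAATCCCC from 55 to 46 bases before the start, and BIRC3 holds GGAAATCCCC from 199 to 190 and GGAGTTCCCC from 135 to 126. NFKBIA holds GGAAATTCCC from 81 to 72 bases before the start, where both searches match and overlap. The consensus matches of TNFAIP3, BIRC3 and NFKBIA are on the opposite strand, and their letters are given as printed. The NFKB2 window printed is the last of its 3 starts in the table and holds GGGGCTTCCC from 176 to 167 and GGGACTTTCC from 21 to 12. Over all 35116 promoter windows of this length, 5.21% held the consensus and 0.413% held GGAAATTCC. Windows were found for 8 of the 10 genes, and RELB and NFKBIE were not among them. The consensus was in at least 1 window of 6 of these 8 genes (NFKB1, NFKB2, REL, NFKBIA, TNFAIP3 and BIRC3), and GGAAATTCC in 4 (NFKB1, REL, NFKBIA and ICAM1). Counted by window, as the shares above are, the consensus was in 7 of the 12 windows of these genes and GGAAATTCC in 4. The 2 windows of RELA held neither. The genes were chosen as subunits and known targets of NF-κB, so counts above the shares of all windows are no result of these data. These matches describe letters in the windows and say nothing of binding in these cells.

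With cordycepin, 3 of the 10 genes rose at least 2-fold (ICAM1, TNFAIP3 and BIRC3) and 0 fell at least 2-fold, against 6.01% of all genes tested that were higher and 3.61% that were lower by the same rule. With cordyceps, 3 genes rose (TNFAIP3, ICAM1 and NFKB2) and 0 fell, against 4.39% higher and 3.3% lower among all genes tested. The log2 ratios of the 10 genes ran from -0.23 to 2.35 with cordycepin, with a median of 0.52, and from 0.16 to 1.46 with cordyceps, with a median of 0.54. With cordycepin 9 of the 10 lay above 0 and 5 were within 2 technical spreads of 0. With cordyceps 10 lay above 0 and 4 were within 2 spreads. The medians over all genes measured on both arrays were -0.051 with cordycepin and -0.11 with cordyceps. The cordycepin count above 0 depends on the scaling. Under median scaling NFKB1, RELA and RELB also fell below 0 and NFKBIA came to 0.00. ICAM1 and TNFAIP3 are also among the apoptosis-related genes that the study selected from these same arrays, so their rise is not independent evidence of a direction for the group.

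**Figure D1:**
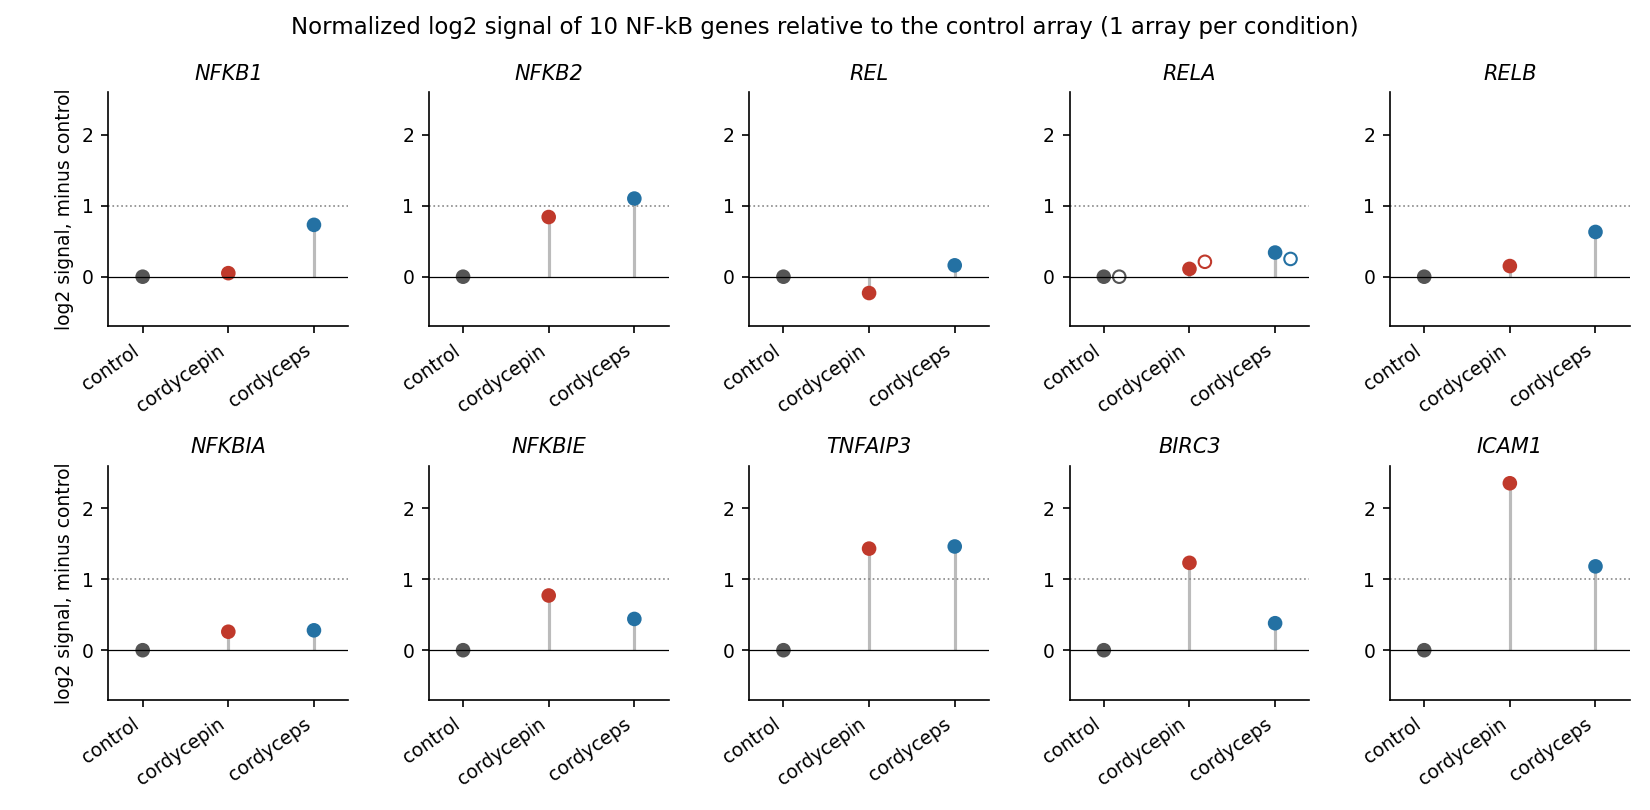
Normalized log2 signal of the 10 genes on the control, cordycepin and cordyceps arrays (x axis), minus the control array (y axis, log2 units), with 1 array per condition and no error bars. Open circles are the second probe of RELA and the dotted line is a 2-fold rise; ICAM1 (2.35), TNFAIP3 (1.43) and BIRC3 (1.22) pass it with cordycepin, and TNFAIP3 (1.46), ICAM1 (1.17) and NFKB2 (1.10) with cordyceps.

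Among the subunits, NFKB2 had the largest ratios with either treatment, and the 5 genes had a median log2 ratio of 0.11 with cordycepin and 0.63 with cordyceps. NFKB2 encodes p100, the precursor of the p52 subunit, which pairs with RelB in the non-canonical pathway and in its unprocessed form also acts as an inhibitor. Its signal was 313 in control cells, 484 with cordycepin and 671 with cordyceps. It was lowest in control cells. After scaling, the log2 ratio was 0.84 with cordycepin, or 1.79-fold, which missed the threshold, and 1.10 with cordyceps, or 2.14-fold. Among all genes measured, 5.51% had a ratio at least as high with cordycepin and 2.45% with cordyceps. The cordyceps value came close to the threshold. It fell under it, to 0.95, with another background correction (normexp) that also added an offset of 50 to every signal.

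RELB encodes the partner of p52. Its probe gave 19726 in control cells, 18774 with cordycepin and 30441 with cordyceps. Signals of the control and cordycepin arrays lay close together and that of the cordyceps array was higher. The log2 ratio was 0.14 with cordycepin, which is under the technical spread and turned to -0.12 when arrays were scaled by their medians, and 0.63 with cordyceps, or 1.54-fold, 3.1 spreads from 0 but under the 2-fold threshold. NFKB1 encodes p105, the precursor of the p50 subunit, and had the same order of arrays. Its signal was 1634 in control cells, 1460 with cordycepin and 2710 with cordyceps. The log2 ratio was 0.05 with cordycepin, which turned to -0.21 under median scaling, and 0.73 with cordyceps, or 1.66-fold and 3.6 spreads from 0.

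RELA encodes p65, the transactivating subunit of the most common dimer, and REL encodes c-Rel, best known from lymphocytes. Neither was called with either treatment. The brighter RELA probe read 1207, 1121 and 1526 on the control, cordycepin and cordyceps arrays, with log2 ratios of 0.11 and 0.34. The other RELA probe read 315, 314 and 376, with log2 ratios of 0.21 and 0.25. The probes of RELA thus gave ratios that lay within the technical spread of each other. With cordycepin the ratio of the brighter one turned to -0.16 under median scaling. REL read 547, 401 and 610. It was the one gene of the 10 with a ratio below 0, -0.23 with cordycepin, and that value is within 1 technical spread of 0. Its cordyceps ratio was 0.16.

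Of the inhibitor genes, TNFAIP3 rose with both treatments. It encodes A20, a ubiquitin-editing enzyme that shuts down signaling upstream of the IκB kinase. Its signal was 605 in control cells, 1407 with cordycepin and 1669 with cordyceps. Both treated arrays were well above the control array. The log2 ratio was 1.43 with cordycepin, or 2.70-fold and 5.7 technical spreads, and 1.46 with cordyceps, or 2.76-fold and 7.2 spreads. With cordycepin 1.68% of all genes measured had a ratio at least as high, and with cordyceps 1.36%. Over the 11 alternative ways of processing, the ratio lay between 1.17 and 1.48 with cordycepin and between 1.45 and 1.73 with cordyceps. The 2-fold call was kept in each, but those that change the choice of probe could not move a gene with 1 probe. Keeping outlier spots could not alter its own spot, which was not flagged. A 3-fold threshold, not among the 11, was not reached. The probe is a single spot. On the cordyceps array, 2.9% of the spots in its block of the array were at least 2-fold higher than in control.

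The genes of the IκB proteins stayed under the threshold. NFKBIA encodes IκBα, the inhibitor that is resynthesized fastest after NF-κB is activated. Its 10 spots ran from 18699 to 20327 in control cells (median 19537), from 18823 to 21279 with cordycepin (median 20287) and from 22638 to 24961 with cordyceps (median 23691). Before scaling, the spots of the control and cordycepin arrays overlapped and those of the cordyceps array lay above both. After scaling, the control spots (6.17 to 6.29 in log2 units) lay below the cordycepin spots (6.39 to 6.57) and the cordyceps spots (6.44 to 6.58), and the spots of the treated arrays overlapped. The log2 ratio was 0.26 with cordycepin and 0.28 with cordyceps, with standard errors over spots of 0.021 and 0.018, which measure the printing and scanning of 1 RNA sample and not the spread between cultures. Both ratios were within 2 spreads between probes of a gene. With cordycepin the ratio came down to 0.00 under median scaling. NFKBIE encodes IκBε, a slower inhibitor of the same family. It read 3146 in control cells, 4627 with cordycepin and 4291 with cordyceps. Both treated arrays were higher than the control array. For NFKBIE the log2 ratio was 0.77 with cordycepin, or 1.71-fold and 3.1 spreads, and 0.45 with cordyceps, or 1.36-fold and 2.2 spreads.

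BIRC3 rose with cordycepin. It encodes cIAP2, a ubiquitin ligase that acts at tumor necrosis factor receptors, where it restrains cell death and the non-canonical pathway. Its signal was 4354 in control cells, 8749 with cordycepin and 5642 with cordyceps. The cordycepin array was the highest and the other arrays lay closer together. Its log2 ratio was 1.22 with cordycepin, or 2.33-fold and 4.9 technical spreads, and 0.37 with cordyceps, or 1.30-fold, which is within 2 spreads of 0. The call with cordycepin was lost when the arrays were scaled by their medians, with a ratio of 0.96. The single spot of BIRC3 lies in row 2 of the array, and the software marked its local background as outlying on the control and cordyceps arrays, where that background was 37 and 36, against 37 on the cordycepin array. The spot was well above background on each array.

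ICAM1 had the largest ratio of the group with cordycepin. It encodes an adhesion molecule of the cell surface that binds leukocyte integrins, and its promoter is a textbook NF-κB target. Over the 10 spots, the signal ran from 54.7 to 77.8 in control cells (median 63.9), from 263 to 310 with cordycepin (median 280) and from 138 to 164 with cordyceps (median 145). No spot of one array overlapped those of another: the control array was lowest and the cordycepin array highest. The spots of an array repeat 1 RNA sample. Over all repeated probes the median SD of spots was 0.061, 0.054 and 0.053 log2 units on the control, cordycepin and cordyceps arrays. Small ratios can thus also separate spots, as for NFKBIA after scaling, and other probes that did so were not counted. With 3 control spots left out that the software flagged as outliers, the mean signals were 64.8, 284 and 146. The log2 ratio was 2.35 with cordycepin, or 5.09-fold, with a standard error over spots of 0.06, and 1.17 with cordyceps, or 2.26-fold, with a standard error over spots of 0.06. With cordycepin 0.281% of all genes measured had a ratio at least as high. Among the probes printed 10 times, it ranked 1 of 288 with cordycepin and 4 of 286 with cordyceps, counted from the highest ratio, while NFKBIA ranked 61 and 38. The control signal was low. Under normexp, as run here, an offset of 50 is also added to every signal. The ratios were then 1.62 with cordycepin, still over the threshold, and 0.73 with cordyceps, under it. An added constant by itself draws the ratios of dim probes toward 0, so this setting does not isolate the background correction.

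**Figure D2:**
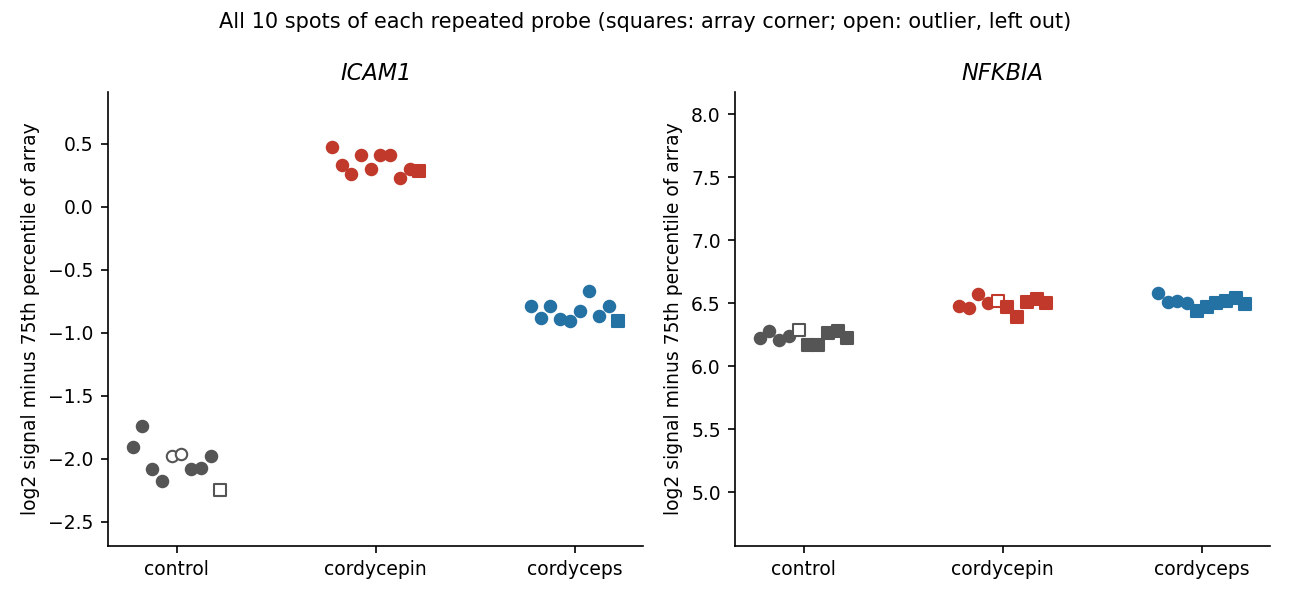
Log2 signal minus the 75th percentile of the array (y axis, log2 units) of each of the 10 printed spots of ICAM1 and of NFKBIA on the 3 arrays (x axis); squares lie in the lower right corner of the array and open symbols are spots left out as outliers. The spots of ICAM1 form 3 separate bands, with the highest control spot at -1.74 and the lowest cordycepin spot at 0.23, while those of NFKBIA lie between 6.17 and 6.58.

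Ratios were taken inside and outside the lower right corner of the array. The 6 NFKBIA spots in the corner gave a log2 ratio of 0.28 with cordyceps and the others 0.29. For cordycepin they gave 0.26 and 0.27. Outside the corner, ICAM1 had a ratio of 2.35 with cordycepin and 1.18 with cordyceps. The 22 spots outside the corner lay in blocks where between 0.434% and 2.9% of all spots were at least 2-fold higher on the cordyceps array. With the corner left out and the arrays scaled again, the cordyceps ratios of TNFAIP3, ICAM1 and NFKB2 were 1.58, 1.30 and 1.21.

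**Figure D3:**
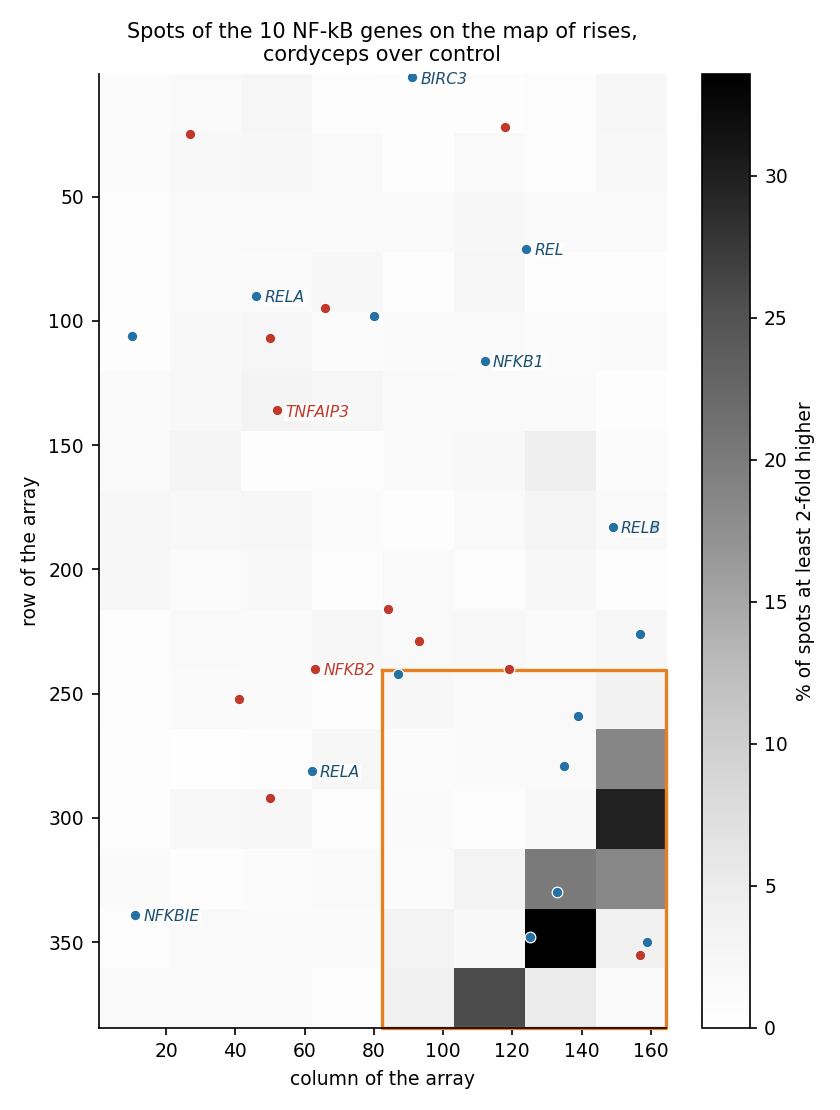
Map of the array by block of spots (x axis column, y axis row), coloured by the percent of spots at least 2-fold higher on the cordyceps array than on the control array; the orange outline is the corner, red points are the spots of TNFAIP3, NFKB2 and, without a name, ICAM1, and blue points are those of the other genes, with NFKBIA unnamed. The blocks of highest percent lie in the corner, and the spots outside it lie in blocks of at most 2.9%.

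Across 11 alternative ways of processing, which changed the scaling, the background correction, the choice of probe and the spots used, median scaling shifted every ratio of a comparison by about the same amount, whereas quantile normalization moved single genes by different amounts. With median scaling the median log2 ratio over all measured probes moved from -0.03 to -0.29 with cordycepin and from -0.12 to 0.15 with cordyceps. NFKB1, RELA and RELB changed sign with cordycepin over these settings, from -0.21 to 0.10 for NFKB1, from -0.16 to 0.16 for RELA and from -0.12 to 0.27 for RELB. The other genes kept their side of 0 with either treatment, except that NFKBIA came down to 0.00 with cordycepin. With cordycepin the range was 0.58 to 0.90 for NFKB2 and 0.51 to 0.86 for NFKBIE, both under the threshold throughout. With cordyceps it was 0.71 to 1.00 for NFKB1 and 0.55 to 0.90 for RELB. For a gene with 1 probe, the alternatives in the choice of probe could not change the ratio, so not all of the 11 are separate checks.

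**Figure D4:**
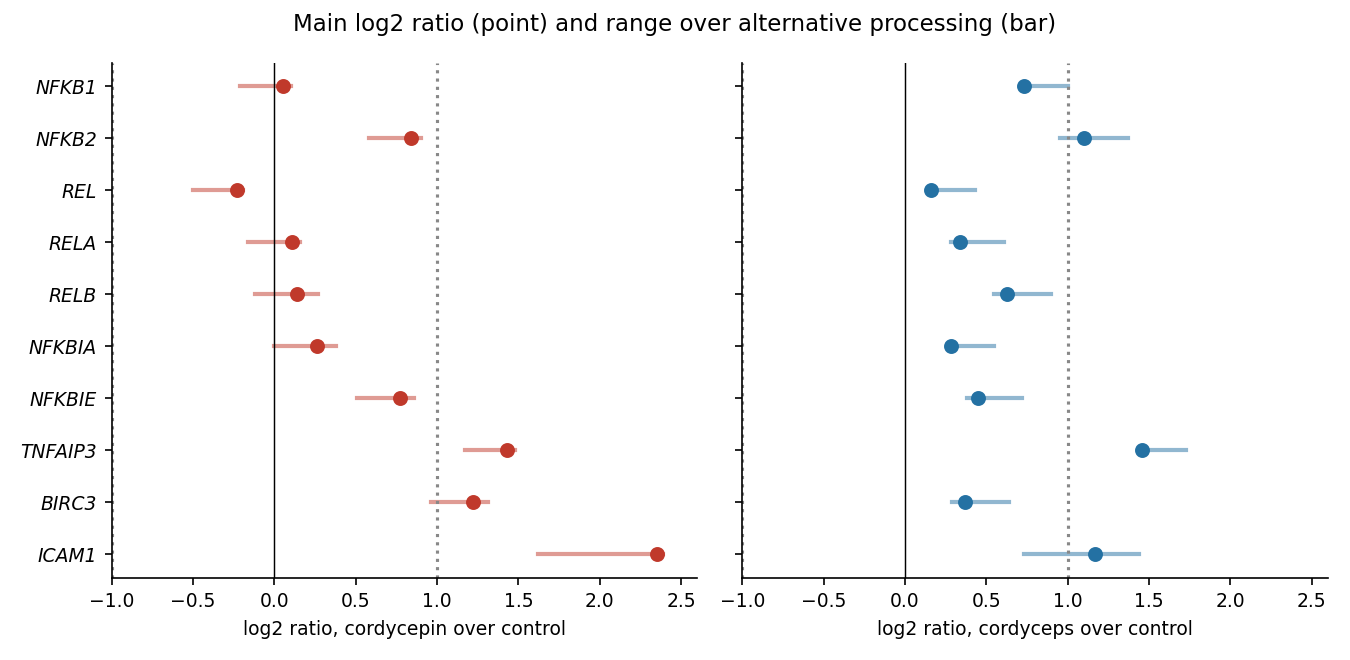
Log2 ratio of each of the 10 genes (y axis) for cordycepin over control and for cordyceps over control (x axis, log2 units); points are the values reported and bars span the lowest and highest value over the alternative ways of processing, not an error, and dotted lines mark 2-fold. The bar of ICAM1 with cordycepin spans 1.62 to 2.39 and that of TNFAIP3 1.17 to 1.48, both right of the 2-fold line, whereas that of BIRC3 starts at 0.96.

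The rest of the pathway was examined in 5 lists of genes chosen by role. The shares of all genes called, against which their counts are read, were 6.01% higher and 3.61% lower with cordycepin and 4.39% higher and 3.3% lower with cordyceps. In lists of 4 to 18 measured genes, counts of 0 or 1 are near these shares and are no result about the list. Of the other IκB proteins, 4 of 4 were measured and 0 were called in either direction with either treatment, with median log2 ratios of 0.55 with cordycepin and 0.38 with cordyceps. The largest ratios with cordycepin were those of NFKBID (signals 61.2, 84.4 and 54.3, ratios 0.68 and -0.17) and NFKBIB (365, 485 and 721, ratios 0.62 and 0.98), which encode a nuclear IκB protein and IκBβ. A second probe of NFKBIB went the other way, with signals of 538, 176 and 442 and ratios of -1.40 and -0.28, so the array gives no single direction for that gene. With cordyceps, 2 of the 4, NFKBIB and NFKBIZ, passed the threshold under median scaling or without the corner.

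Of 12 kinases that act upstream, all were measured. With cordycepin 0 were called and the median was 0.12. The largest ratios were those of RIPK1, the scaffold kinase of the tumor necrosis factor receptor, with signals of 1009, 463 and 858 and a ratio of -0.91, and of IKBKE, an IκB kinase relative, with signals of 28.1, 41.4 and 45.7 and a ratio of 0.77. Under median scaling RIPK1 passed the threshold as lower. With cordyceps the median was 0.07, 0 fell and 1 rose, IRAK2, a kinase of the interleukin-1 receptor pathway. Its signals were 1601, 2070 and 4917 and its ratio was 1.62, or 3.07-fold, against 0.58 with cordycepin.

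Of 19 adaptors and ubiquitin ligases, 18 were measured, and BCL10 was not above background on any array. The median was -0.20 with cordycepin, where 0 were called, and 0.08 with cordyceps, where 1 rose and 1 fell. RBCK1, which encodes HOIL-1 of the linear ubiquitin ligase complex, read 2695, 3020 and 6624, with a ratio of 1.30 with cordyceps, or 2.46-fold, and its other probes gave 0.96 and 1.03. MALT1, a paracaspase of antigen receptor signaling, read 71.7, 40.5 and 29.5 and was not well above background on the cordyceps array, so it was at least 2.08-fold lower there, a call that held under 5 of 11 alternatives.

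Of 15 other negative regulators, 14 had a probe and 12 were measured. With cordycepin 1 rose, 0 fell and the median was 0.25, and with cordyceps 0 were called and the median was 0.07. The one that rose was OTULIN, a deubiquitinase of linear chains, whose signals were 49, 85.2 and 39.3. Its ratio of 1.01, or 2.02-fold, lay at the threshold and passed it under 6 of 11 alternatives.

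Most calls were among 30 textbook target genes of NF-κB, some of which the study had selected from these arrays, so that their counts are not independent evidence. With cordycepin 28 were measured, 11 rose, 1 fell and the median log2 ratio was 0.71, beside the median of -0.051 for all genes and the 6.01% and 3.61% called. With cordyceps 27 were measured, 9 rose, 0 fell and the median was 0.66, beside -0.11 for all genes and the 4.39% and 3.3% called. VCAM1 and SELE, adhesion molecules of activated endothelium, were not well above background on any array.

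Chemokines and cytokines made up most of the rises with cordycepin, but they are also a large part of the list. The chemokines CXCL8, CXCL1, CXCL2 and CXCL3 were not called with cordycepin, with ratios of 0.78, 0.51, 0.72 and 0.25. CCL5, which attracts T cells and monocytes, read 85.5, 929 and 135 on the control, cordycepin and cordyceps arrays, a ratio of 3.66 with cordycepin, or 12.6-fold, and of 0.66 with cordyceps. CSF2, which encodes the growth factor GM-CSF, was not well above background on the control array, at 8.06, and read 89.3 with cordycepin. By the processing used it was at least 5.55-fold higher, a log2 ratio of 2.47, which came down to 1.17 with normexp. The ratios of CCL20 and CCL2, further chemokines, were 1.85 and 1.40 with cordycepin. IL1A, IL1B and TNF, which encode inflammatory cytokines that themselves activate NF-κB, had ratios of 2.23, 1.68 and 2.18. IL6, CD83, LCN2 and LTB had ratios of 1.73, 1.72, 1.35 and 1.31. The one that fell was CD44, a receptor for hyaluronan, from 46714 to 14296, a ratio of -1.49. A second CD44 probe, dim and in the corner, gave -0.15, and the median over both probes was -0.82. BCL2A1, a BCL2 relative that protects from cell death, was not called by its brighter probe (7233, 7065 and 7245, ratios 0.18 and 0.00), whereas its other probe (560, 1993 and 1197) gave 2.04 with cordycepin, or 4.13-fold, and 1.09 with cordyceps, or 2.14-fold.

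With cordyceps the genes that rose included IL6, from 195 in control to 1118, a ratio of 2.52 or 5.74-fold, and IL1A, from 73 to 316, a ratio of 2.11 or 4.32-fold. The neutrophil chemokines CXCL8 and CXCL2 had ratios of 1.41 and 1.30, LCN2 1.44, TNF 1.20, and PTGS2 and SOD2, which encode an inducible prostaglandin synthase and a mitochondrial superoxide dismutase, 1.12 and 1.10. TNF fell under the threshold, to 0.55, with normexp. The call of TNFSF10, which encodes the death ligand TRAIL, depended on its probe. Its probe in the corner of the array read 117, 79.1 and 412, a ratio of 1.82 with cordyceps, whereas a probe outside the corner read 205, 92.9 and 89.1, a ratio of -1.20. The remaining TNFSF10 probe was not well above background. Without the corner, 8 of the 9 rises were left.

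**Figure D5:**
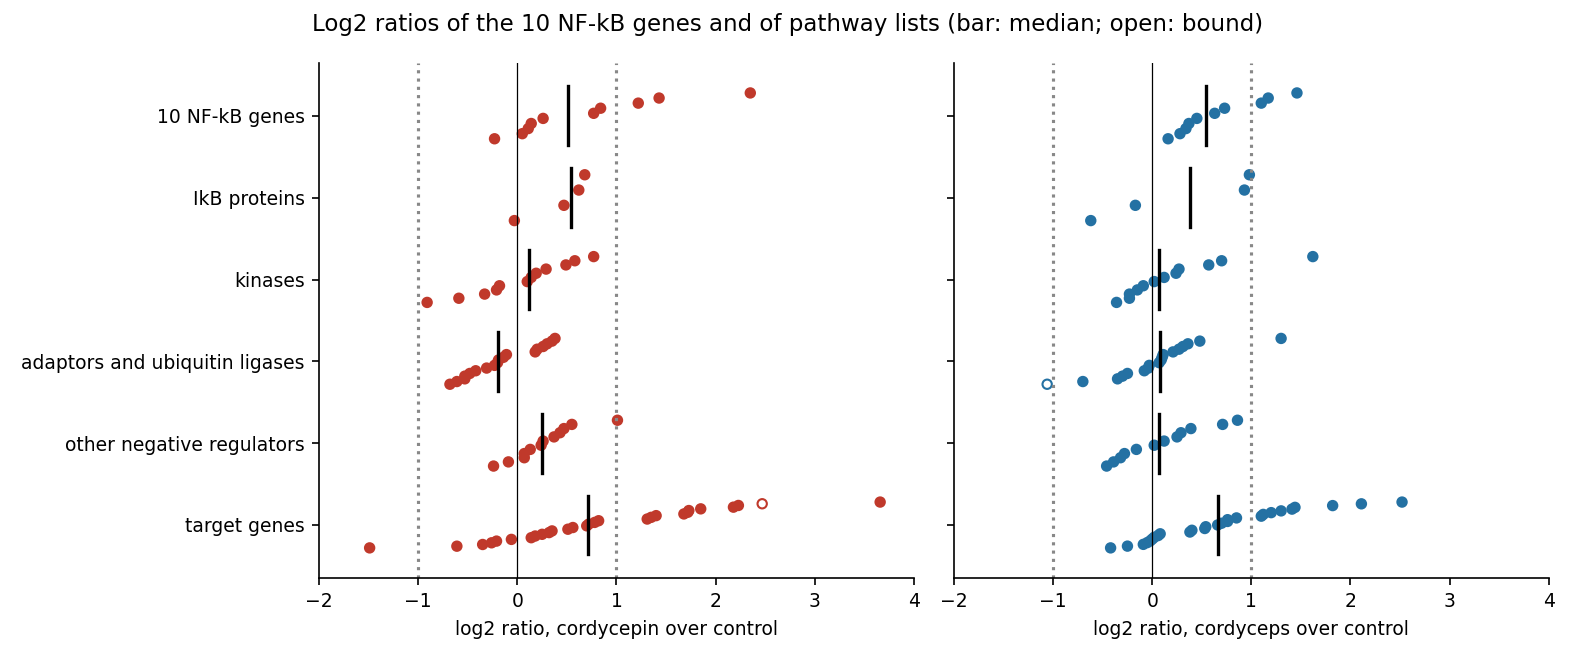
Log2 ratio of each measured gene (points) of the 10 NF-κB genes and of the 5 lists (y axis) for cordycepin over control and cordyceps over control (x axis, log2 units); bars are medians, open points are bounds for genes not well above background on 1 array and dotted lines mark 2-fold. The target genes have medians of 0.71 and 0.66 and reach 3.66 with cordycepin and 2.52 with cordyceps, while the adaptors and ubiquitin ligases have medians of -0.20 and 0.08.

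For the 3 genes that rose with cordycepin, the genes with the most similar pair of ratios were sought among 11248 named genes that were well above background on all 3 arrays with spots outside the corner. Likeness was the distance between the pairs of log2 ratios, cordycepin over control and cordyceps over control, and so rests on 3 arrays. Nearest to TNFAIP3 were TMEM92-AS1 (1.44 and 1.40), SPOCK2 (1.49 and 1.51) and LCN2 (1.35 and 1.44), at distances of 0.061, 0.069 and 0.085. Nearest to BIRC3 were SH3RF2 (1.23 and 0.35), NRG1 (1.17 and 0.37) and TEX19 (1.17 and 0.38), at distances from 0.023 to 0.053. ICAM1 had no neighbor as close: its nearest were TNF (2.18 and 1.20), PLXNB3 (2.36 and 0.96) and DHRS2 (2.06 and 1.28), at distances of 0.17, 0.22 and 0.31.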

How the data were processed

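The 3 arrays (0.1% DMSO, cordycepin and cordyceps) lay on 1 slide. The authors deposited the intensity values of each array as written by Agilent Feature Extraction 11.5.1.1, background-subtracted within the array, of a single Cy3 channel, together with a table of unscaled intensity values, used as an alternative. The methods name Cy3 and Cy5 and normalization in GeneSpring, whereas each file holds 1 color, so ratios were taken between arrays. The processing cannot correct for an effect of a culture, since n = 1.

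Control spots and outlier spots (106, 80 and 63 by array) were left out, the 75th percentile of each array was subtracted from its log2 signals, and repeated spots were averaged. Detection required 50% or more of a probe's spots to be well above background (28494, 27666 and 24505 of 58201 probes). A difference of 2-fold or more was called, as a ratio for probes detected on both arrays and otherwise as a bound, in which the dim side took its own signal or the lowest detected signal of the array, whichever was higher. The technical SD of a ratio was taken from the median absolute difference between the probes of a gene. No spot was saturated (0 on each array). Accessions of the array design, made on hg19, matched RefSeq GRCh38.p14 for 31104 probes, and no coordinates were carried between builds. Promoter windows came from RefSeq GRCh38.p14.

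The brightest probe stood for a gene. The genes and lists were chosen with earlier results of these data known. Named were all 10 genes, the called genes of each list or, where none was called, the 2 with the largest ratio with cordycepin, and the 3 nearest genes of each gene called with cordycepin. Genes that could not be measured, second probes, NFKBIZ, CXCL1, CXCL3, ICAM3 and BIRC2 were named after their values were seen. Not every marker examined is reported here. The calling step was tested on simulated data with changes larger than the threshold at detected probes. Calls near 2-fold, bounds and the corner were not tested by it. Alternatives were median scaling, percentile over detected probes, quantile normalization, no scaling, normexp (offset 50), outliers kept, the deposited value table, the median over probes, the brightest probe in control, the corner left out, other detection rules and thresholds of 1.5-fold and 3-fold. Subtracting the median of the surrounding 12 rows and columns was added after the data had been seen. Python 3.11.15 (numpy 2.4.6, pandas 2.3.3, matplotlib 3.10.9) and R 4.3.3 with limma 3.58.1 were used.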

Additional observations from a re-analysis of the deposited data

How the results depend on the processing

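With 1 array per condition no replicate could be left out. No paired analysis was possible because each condition has 1 array. With median scaling the median log2 ratio of the 10 genes was 0.25 with cordycepin and 0.81 with cordyceps, against 0.52 and 0.54 as reported. With normexp 1 gene, TNFAIP3, was higher with cordyceps, in place of 3. At 1.5-fold, 5 genes were higher with cordycepin (NFKB2, NFKBIE, TNFAIP3, BIRC3 and ICAM1) and 5 with cordyceps (NFKB1, NFKB2, RELB, TNFAIP3 and ICAM1). At 3-fold these counts were 1 (ICAM1) and 0. Of all genes tested, 13.4% were higher with cordycepin and 8.69% with cordyceps at 1.5-fold, and 2.47% and 2.4% at 3-fold. Among the target genes, 14 were higher with cordyceps at 1.5-fold and 3 at 3-fold. Target genes lower with cordycepin numbered 2 at 1.5-fold, 0 at 3-fold and 0 by the median over probes, and 1 was lower with cordyceps, TNFSF10, with the brightest probe in control or without the corner. TNFSF10 turned to -1.20 with the former and -1.09 with the latter, and in both the construction shows the cause, since another probe stands for the gene. The counts at 1.5-fold and 3-fold changed with the threshold itself, and median scaling shifts all ratios of a comparison alike. By the median over probes, the dim second probe of CD44 enters its value. For normexp, the parts of the correction and of its offset were not tested. The other values of these counts and medians, 128 in all, stayed the same, changed by at most 1.5 times or moved by less than the technical spread. They include the count of genes higher with cordycepin under median scaling, which was 2 in place of 3 because BIRC3 was lost. The number of arrays limits the precision, and ratios of dim probes such as that of ICAM1 depend on the background correction and the offset added with it.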

Other observations

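Relatives of ICAM1 and BIRC3 were examined as families. Of the other ICAM genes, 3 were measured with cordycepin and 2 rose, against 6.01% of all genes tested. With cordyceps 2 were measured and 0 rose, against 4.39%, as ICAM2 was not well above background on either array. Neither cordycepin call held under median scaling (0.97 for ICAM5 and 0.95 for ICAM2) or with normexp (0.93 and 0.63). ICAM5, an adhesion molecule of neurons, read 93.6 in control cells, 189 with cordycepin and 81.3 with cordyceps, a log2 ratio of 1.23 with cordycepin, called under 9 of 11 alternatives, and -0.20 with cordyceps, which turned to 0.07 under median scaling. ICAM2 was not well above background on the control array, at 4.51, and read 37.2 with cordycepin, at least 2.31-fold higher, a call that held under 8 of 11 alternatives. ICAM3, found on leukocytes, read 842, 673 and 719, with ratios of -0.11 and -0.23.

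Of 6 relatives of BIRC3, 0 rose and 1 fell with each treatment, against 3.61% of all genes tested that were lower with cordycepin and 3.3% with cordyceps, so these counts are no result about the family. BIRC7, which encodes livin, read 489, 181 and 790 and was 2.33-fold lower with cordycepin, a call that was lost with normexp (-0.98), with a ratio of 0.69 with cordyceps. BIRC5, which encodes survivin, a protein of dividing cells, read 11788, 9652 and 4627 and was 2.55-fold lower with cordyceps, with a ratio of -0.07 with cordycepin. BIRC2, which encodes cIAP1, the closest relative of the BIRC3 product, read 918, 733 and 868, with ratios of -0.11 and -0.08.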
